A study of Rattus norvegicus with 94 samples.

Results

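The early course of the liver response to di(2-ethylhexyl) phthalate (DEHP), a plasticizer, was read from 6 rat livers, 3 taken 24 h and 3 taken 4 h after a single dose of 20 g/kg in distilled water. These 6 arrays, each of 1 male SD rat, were chosen by their labels out of 94 arrays in the series, and arrays of pooled RNA were left out. The question was which transcripts were still moving away from the vehicle level at 24 h, which had newly moved by then, and which stood furthest out at 4 h. The other individual arrays of the DEHP set, 5 each at 48 and 168 h after the dose and 5 vehicle animals at each of those times, entered the estimate of spread. Vehicle livers were of 48 and 168 h only, so their range is given for orientation and is not matched in time. Clofibrate (1000 mg/kg) and sodium valproate (VPA, 2000 mg/kg), with 3 livers at 24 h and 3 at 4 h each, served for the test of whether the change from 4 to 24 h differed between compounds.

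DEHP is hydrolysed in the gut and liver to its monoester, which in rodents activates the nuclear receptor PPARα. This receptor turns on the enzymes of fatty acid oxidation in peroxisomes and mitochondria, the fatty acid hydroxylases of the Cyp4a family and the kinase Pdk4, and prolonged activation enlarges the liver and multiplies its peroxisomes. High doses of phthalates also raise genes known as targets of the receptor CAR, such as the Cyp2b cytochromes.

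RNA was measured on Affymetrix rat genome arrays, and levels are given as MAS 5.0 signal, an intensity that the authors scaled so that each array met a target of 1500. Signals under 150 were treated as a floor. Albumin (Alb), which defines hepatocytes, gave 87442 to 97617 at 24 h and 98167 to 149910 at 4 h, so the labelled tissue was present. The summed signal of 8 hepatocyte markers was 393480 to 450748 at 24 h and 438371 to 585831 at 4 h. Fewer cells of a type and less RNA per cell cannot be told apart in whole liver.

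At a Benjamini-Hochberg adjusted p under 0.05 (limma, n = 3 against 3), 885 of 4092 probe sets were called different, or 21.6%. Of these 440 (10.8%) were higher and 445 (10.9%) lower at 24 h than at 4 h, and 110 of the higher and 150 of the lower differed by 2-fold or more. The arrays of 24 h and 4 h did not overlap for 822 of the called probe sets, and for 34.1% of all probe sets tested. The median log2 difference over all probe sets was -0.06. The common scaling target bears on the balance of rises and falls: of 2489 genes measured, 225 rose and 253 fell as deposited, and 259 rose and 221 fell with each array centred on its median. Each array is 1 animal per the labels, and the p-values measure the spread between these animals and arrays.

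The scanner files place all 3 arrays of 24 h on fluidics station 1 and all 3 of 4 h on station 2, so within the 6 arrays time and station cannot be told apart. Scan days also differed. Numbered in order over the series, they were 6, 7 and 6 for the 24 h arrays and 7, 8 and 10 for the 4 h arrays. With scan day as a block, 569 of the 885 stayed called. With station as a block, estimated through the DEHP groups that span both stations, 556 probe sets were called, 531 of the 885 among them, and all 885 kept their sign. The pooled arrays of the 2 times both ran on station 2 on 1 scan day, and they showed the same direction for 425 of the 440 higher and 422 of the 445 lower probe sets. The labels do not say which animals were pooled. The log2 ratio of 3' to 5' control signal was 0.42 ± 0.15 at 24 h and 0.24 ± 0.06 at 4 h (SD, n = 3 each, exact permutation p = 0.2, two-sided), where 0.1 is the smallest p this design allows. The median signal was 325.5 to 327.8 at 24 h and 344.5 to 372.2 at 4 h, and the share of probe sets at 500 or above 40.5% to 40.7% at 24 h and 41.6% to 43.0% at 4 h (exact permutation p = 0.1 for both, two-sided). The part of these differences in the results was not tested.

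**Figure D1:**
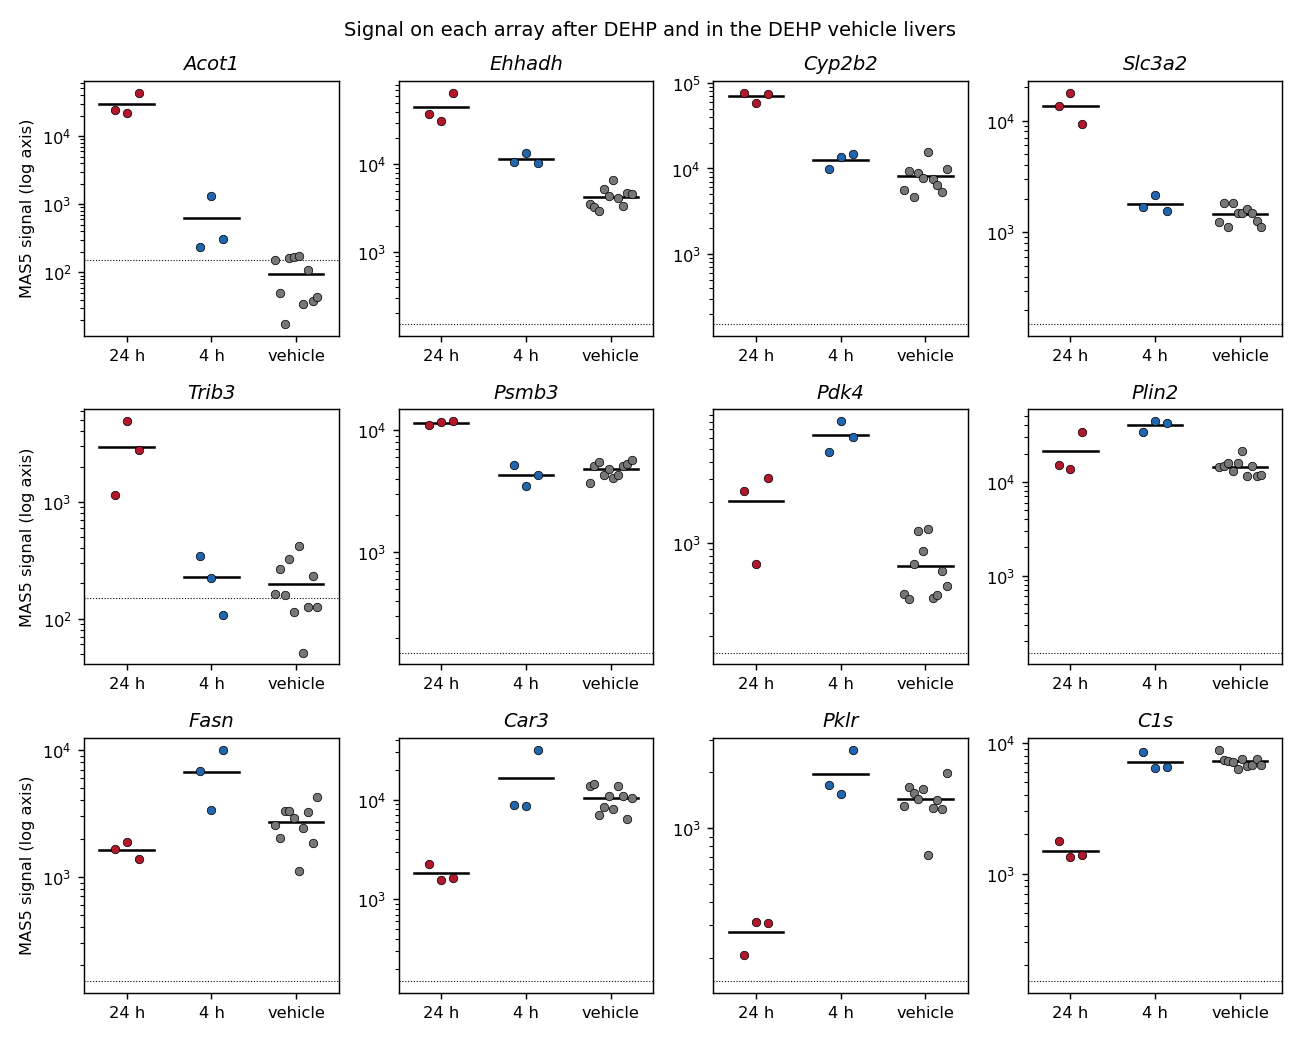
Signal of 12 genes on every DEHP array, on a log axis, with the 3 livers of 24 h (red), the 3 of 4 h (blue) and the 10 vehicle livers (grey); black bars are group means and the dotted line is the floor of 150. Acot1, Ehhadh, Cyp2b2, Slc3a2, Trib3 and Psmb3 are higher on every 24 h array than on any 4 h array, and Pdk4, Fasn, Car3, Pklr and C1s are lower on every one, while Plin2 overlaps on 1 array.

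Genes of fatty acid metabolism were among the largest rises. The first of them was Acot1, an acyl-CoA thioesterase that frees fatty acids from coenzyme A. Its signal was 23882, 21439 and 43353 at 24 h, against 233, 1313 and 307 at 4 h, while the 10 vehicle livers lay between 17.3 and 175. The groups did not overlap, which the rule for naming the largest rises required, and the difference was 61.9-fold (log2 5.95, SE 0.59, adjusted p = 2.83e-07). Its mitochondrial relative Acot2 stood at 11047, 12136 and 12801 at 24 h, against 2245, 4397 and 2058 at 4 h (4.39-fold, adjusted p = 0.0167). Probe sets of such close relatives may detect more than 1 transcript.

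Ehhadh, the peroxisomal bifunctional enzyme, had signals of 37607, 31083 and 65816 at 24 h, against 10562, 13375 and 10410 at 4 h and a vehicle range of 2936 to 6601 (3.74-fold, adjusted p = 6.63e-05). Every 24 h liver lay above every 4 h liver, which the rule for naming the largest rises required, and every 4 h liver above every vehicle liver. Ech1, a dienoyl-CoA isomerase, was 3.25-fold higher at 24 h (adjusted p = 0.00296), and Acaa1b, the peroxisomal thiolase, 2.20-fold (adjusted p = 0.023). Acaa1b had 24424, 27130 and 51214 at 24 h and already 16419, 15344 and 12701 at 4 h, against 1055 to 4155 in vehicle livers.

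In a list of genes for mitochondrial oxidation and ketone bodies, which also holds the cytosolic Acot1, 12 of 23 measured rose and 1 fell, with a median log2 difference of 0.55. For comparison, here and with every list below, 9.04% of all 2489 genes measured were higher and 10.2% lower, with a median of -0.05. The members that rose included Eci1 (3.04-fold), an enoyl-CoA isomerase, Acadvl (2.32-fold), which begins the oxidation of very long chains, Slc25a20 (2.14-fold), the carnitine carrier of the inner membrane, Decr1 (2.14-fold), a dienoyl-CoA reductase, Acaa2 (2.00-fold), the mitochondrial thiolase, and Hadhb (1.96-fold), of the trifunctional protein. Bdh1, which makes β-hydroxybutyrate, fell 2.89-fold. The list of peroxisomal beta-oxidation and the peroxisome had 5 of 23 higher and 2 lower, with a median of 0.21. Its other rises were Decr2 (2.23-fold), a peroxisomal reductase, and Hsd17b4 (1.45-fold), the second bifunctional enzyme, and its falls were Hao2 (3.14-fold), a hydroxyacid oxidase, and Scp2 (1.64-fold), a sterol carrier with thiolase activity.

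Cyp4a1, a fatty acid omega-hydroxylase, stood above every vehicle liver at both times, and its 3 probe sets disagreed on the further change. The brightest had 44347, 44955 and 51220 at 24 h and 34435, 39307 and 46313 at 4 h, against 3537 to 15741 in vehicle livers, and its difference missed the threshold (log2 0.23, SE 0.29, adjusted p = 0.613). The other two were called higher at 24 h with no overlap, one 1.76-fold (adjusted p = 0.0326) and one 2.18-fold (adjusted p = 0.0149). Both calls were lost with station as a block (adjusted p = 0.0899 and 0.0784) and without single arrays (up to 0.141, without 4 h array 1, and 0.0794, without 24 h array 3). Probe sets of the Cyp4a family may detect more than 1 of its transcripts.

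For 3 further targets of PPARα the errors were too wide to tell the times apart. Cpt2, carnitine palmitoyltransferase of the inner membrane, had 12533, 9938 and 14804 at 24 h and 7888, 11411 and 8680 at 4 h, against at most 5912 in vehicle livers (log2 0.41, SE 0.22, adjusted p = 0.184). Pex11a, of peroxisome division, had 3304, 1736 and 8491 at 24 h and 2138, 2063 and 1680 at 4 h (log2 0.91, SE 0.47, adjusted p = 0.184), with array 3 of 24 h far above the rest. Cpt1a, the outer membrane transferase, had a log2 difference of -0.12 (SE 0.50, adjusted p = 0.89), whose sign changed with station as a block, and differed from vehicle at neither time by the test (adjusted p = 0.123 at 24 h and 0.261 at 4 h).

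In the list of omega-hydroxylation, fatty acid binding, activation and storage 2 of 19 rose and 2 fell, with a median of -0.17. These shares are near those of all genes measured (9.04% higher and 10.2% lower). Cd36, a fatty acid transporter, rose at least 2.82-fold and Cyp4f4 1.45-fold, whereas Plin2, which coats lipid droplets, fell 2.08-fold and Cyp4f1 had a log2 difference of -0.59 (adjusted p = 0.000513). Calls were lost when single arrays were left out for Acot2 (4 h array 1 or 3, adjusted p up to 0.0671), Acaa1b (24 h array 3 or 4 h array 3, up to 0.137), Hsd17b4 (up to 0.105), Bdh1 (up to 0.122), Cd36 (24 h array 1, 0.0695) and Cyp4f4 (up to 0.125). Acaa1b and Cyp4f4 were also not called with station as a block (adjusted p = 0.0608 and 0.0606) or with scan day as a block (0.0675 and 0.0689). Without 24 h array 3 the peroxisomal list counted 3 higher and 4 lower, and with scan day and station both as blocks 2 higher and 2 lower.

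**Figure D2:**
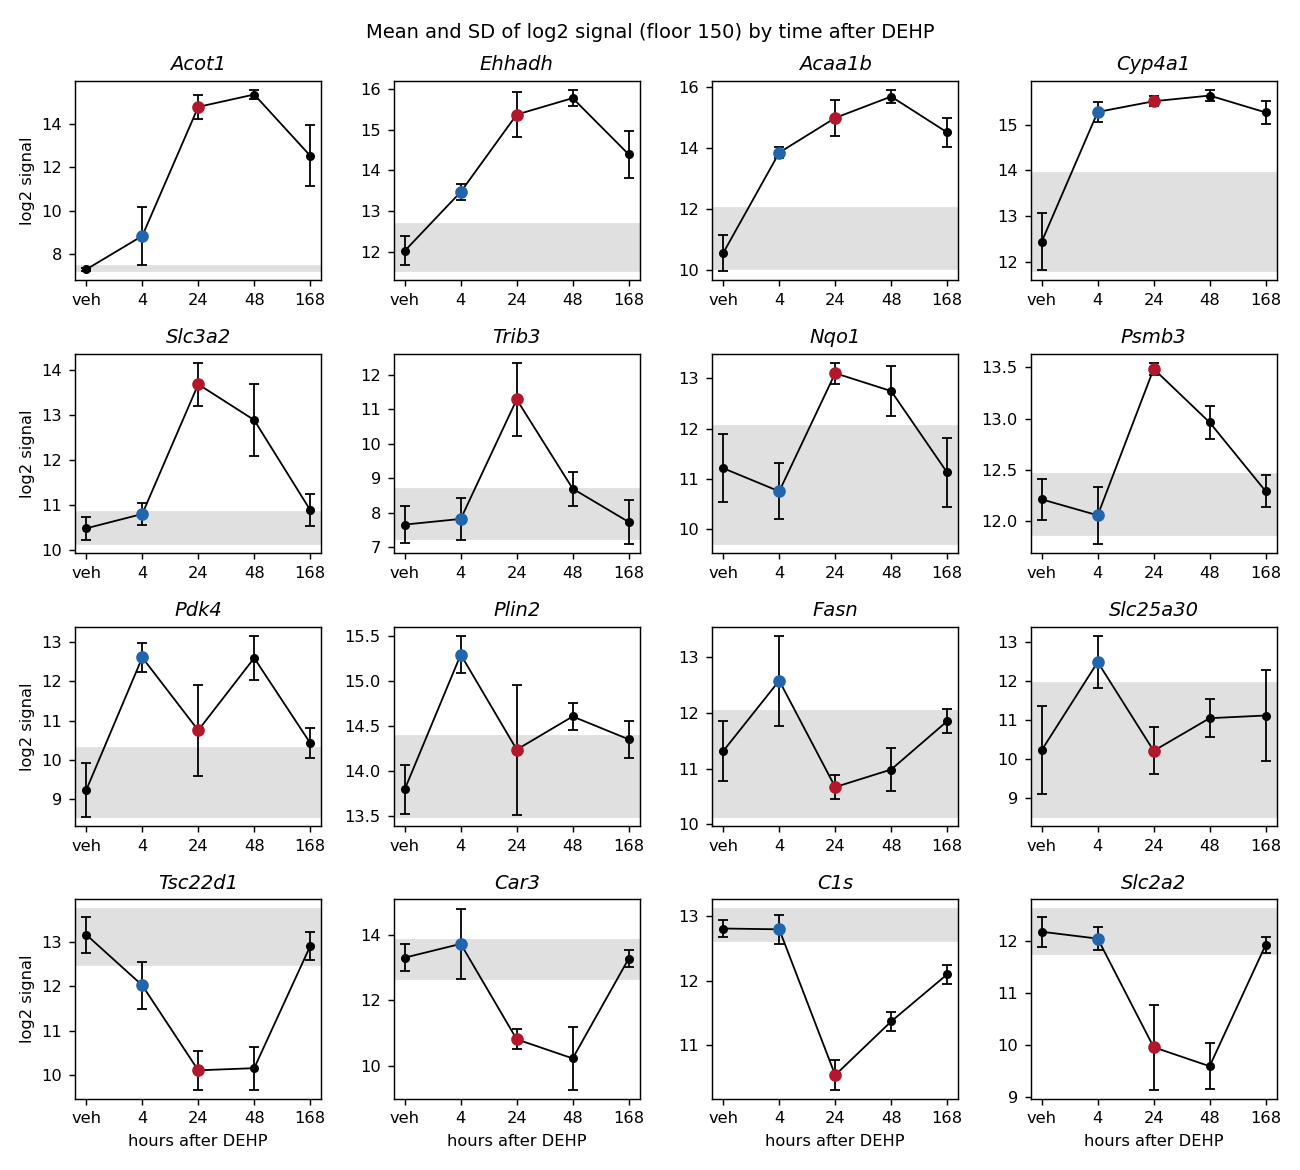
Log2 signal of 16 genes in vehicle livers (veh, n = 10) and 4 h, 24 h (n = 3 each), 48 h and 168 h (n = 5 each) after DEHP, as mean and SD with signals under 150 set to 150; the 4 h mean is blue, the 24 h mean red and the grey band spans the vehicle livers. Acot1, Ehhadh and Acaa1b climb between 4 and 24 h, Slc3a2, Trib3, Nqo1 and Psmb3 leave the band only after 4 h, and Pdk4, Plin2, Fasn and Slc25a30 are highest at 4 h among the first 2 times.

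Set against the vehicle range, most of the 885 called probe sets were new changes. The 4 h mean lay inside the range of the 10 vehicle livers and the 24 h mean outside it for 331 of the 440 that rose and 311 of the 445 that fell. Both means lay outside on the same side, with 24 h further out, for 18 that rose and 33 that fell, among them Acot1, Acot2, Ehhadh, Acaa1b, Aldh1a1 and Nupr1 upward. Hao2, Fmo1, Ptgr1, Cyp1a2, Tsc22d1 and Cited2 did so downward. For 74 that rose and 69 that fell the 4 h mean lay outside the range and the 24 h mean was inside it, past its other end, or no further out. Both means lay inside for the remaining 17 that rose and 32 that fell. In the same fit, and with the same treated arrays, 617 probe sets (15.1%) were higher and 717 (17.5%) lower than vehicle at 24 h, and 63 (1.54%) higher and 55 (1.34%) lower at 4 h. The counts of means against a range were not tested. The range rests in part on array 1 of the 48 h vehicle livers, which set its upper end for Acot1, Ehhadh, Acaa1b, Cyp4a1, Cyp2b2, Ech1, Pdk4, Plin2 and Trib3. Without it the probe sets outside at both times and further out at 24 h numbered 42 that rose and 42 that fell, with Ech1, Eci1 and Cyp2b2 among those that rose, and the new changes 302 that rose and 307 that fell. The highest vehicle signal was then 3229 for Ech1, against 11706 with all 10 livers, and 9785 for Cyp2b2, against 15682.

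Genes furthest from the vehicle livers at 4 h included some of fuel choice and lipid storage. Pdk4, the kinase that shuts pyruvate dehydrogenase, had 2430, 692 and 3047 at 24 h, against 4787, 8087 and 6133 at 4 h and 377 to 1260 in vehicle livers. It fell 3.59-fold (adjusted p = 0.0087), with 2 of the 3 livers of 24 h still above every vehicle liver. Its mean was again 6531 at 48 h and then 1420 at 168 h, so 4 h was not its only high time. Against vehicle livers, in contrasts that share those arrays, its log2 difference was 1.51 at 24 h and 3.35 at 4 h. Pdp2, the opposing phosphatase, was 1.86-fold lower at 24 h (adjusted p = 0.0394), and Pdhb, a subunit of the dehydrogenase itself, 1.44-fold lower. With them 3 of 7 measured genes of pyruvate dehydrogenase control fell and 0 rose, with a median of -0.53; with station as a block none of the 3 kept its call, though Pdk4 stayed at -1.78 on the log2 scale, against -1.84 without the block (adjusted p = 0.058), and each lost it without some single arrays (adjusted p up to 0.0975 for Pdk4, without 24 h array 2, 0.168 for Pdp2 and 0.0585 for Pdhb).

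Plin2 had 15246, 13866 and 34377 at 24 h, against 34057, 44538 and 42872 at 4 h and 11546 to 21481 in vehicle livers (adjusted p = 0.00262). Array 3 of 24 h stayed at the level of the lowest 4 h liver, while the other two lay inside the vehicle range. Slc25a30, a mitochondrial carrier, had 1135, 802 and 1846 at 24 h and 3684, 9394 and 5579 at 4 h (4.86-fold lower, adjusted p = 0.0179). Its call was lost without array 2 of either time (adjusted p up to 0.0843) and with station as a block (log2 -1.46 in place of -2.28, adjusted p = 0.244).

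Enzymes that make fatty acids from sugar fell between 4 and 24 h. Fasn, fatty acid synthase, which was named after its values were seen, had 1651, 1868 and 1392 at 24 h, against 6837, 3340 and 10061 at 4 h and 1120 to 4216 in vehicle livers (3.77-fold lower, adjusted p = 0.000488). Acly, ATP citrate lyase, had 4373, 8175 and 4199 at 24 h, against 21208, 12679 and 41417 at 4 h (4.20-fold lower, adjusted p = 0.000439). Pklr, the liver pyruvate kinase, had 208, 312 and 310 at 24 h, against 1708, 1527 and 2653 at 4 h (7.02-fold lower, adjusted p = 5.68e-07). For none of the 3 did the groups overlap, which the rule for naming the largest falls required of Acly and Pklr.

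Across the list of lipogenesis 5 of 15 genes fell and 1 rose, with a median of -0.22, beside 10.2% and 9.04% of all genes. Dio1, the thyroid hormone deiodinase, fell 3.67-fold and Elovl5, a fatty acid elongase, 2.17-fold. The exception was Dgat1, which joins the last fatty acid to triglyceride, with 3421, 2873 and 3667 at 24 h and 1776, 1805 and 1729 at 4 h (1.87-fold higher, adjusted p = 2.95e-05). Scd, the stearoyl-CoA desaturase, was 5.11-fold lower by 1 probe set (adjusted p = 0.0293, lost with station as a block and without several single arrays, adjusted p up to 0.125), and its brighter probe set, with 9579 to 22416 at 24 h and 26228 to 58339 at 4 h, missed the threshold (adjusted p = 0.189).

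A dip at 4 h that had ended by 24 h was seen for Gclc, the rate-limiting enzyme of glutathione synthesis. It had 1232, 1200 and 1330 at 24 h, against 638, 493 and 811 at 4 h and 864 to 1669 in vehicle livers, so that the 4 h livers lay below both (1.98-fold higher at 24 h, adjusted p = 0.0039). Tuba4a, an α-tubulin, had 1653, 1688 and 649 at 24 h, against 135, 199 and 117 at 4 h and 118 to 1135 in vehicle livers. Its 4 h mean lay low within the vehicle range and its 24 h mean above it, so by range alone it counts among the new changes. By the limma contrasts with vehicle livers it differed at 4 h (log2 -1.875, adjusted p = 0.0345, 2 arrays under the floor). At 24 h it did not (log2 1.01, adjusted p = 0.1235). It rose at least 7.39-fold (log2 2.89, adjusted p = 0.00127), or by 2.00 on the log2 scale with station as a block (adjusted p = 0.054).

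Subunits of the proteasome, the particle that degrades ubiquitin-tagged proteins, rose together between 4 and 24 h. Of 25 measured genes of the proteasome and ubiquitin list 19 rose and 2 fell, with a median log2 difference of 0.91, and 18 were also called higher with scan day and station both as blocks. Psmb3, a subunit of the catalytic core, had 10959, 11653 and 11827 at 24 h, against 5166, 3496 and 4243 at 4 h and 3713 to 5629 in vehicle livers (2.70-fold, adjusted p = 8.41e-07). Psmc5 (2.34-fold, adjusted p = 2.88e-06) and Psmc3 (2.36-fold), ATPases of the regulatory cap, Psmb1 (1.94-fold) and Psmb5 (1.92-fold) followed. Psmb3 had a log2 difference from vehicle livers of 1.28 at 24 h and -0.16 at 4 h.

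The 2 members that fell were Psmb9 (1.83-fold, adjusted p = 0.00256) and Psmb8 (1.44-fold, adjusted p = 0.0432, lost without any 1 of 5 arrays, up to 0.152). Both are immunoproteasome subunits, which replace constitutive ones where antigens are processed. RT1-S3, a class I histocompatibility gene, also fell, with 1344, 583 and 1808 at 24 h and 6988, 3116 and 4564 at 4 h (4.12-fold, adjusted p = 0.000351). The letters TGACNNNGC, the core of the antioxidant response element, were looked for on both strands of the RefSeq promoters (GRCr8) after values were seen. They stood in 3 of 24 promoters of the proteasome list (12.5%), against 334 of 2068 promoters of the genes measured (16.2%).

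Cytosolic ribosomal proteins shifted by less but widely, with 21 of 34 higher, 0 lower and a median of 0.52. Rpl13a (1.80-fold), Rpl35a (1.72-fold) and Rpl18 (1.63-fold) were among them, and Rpl18 had 13840, 13604 and 13376 at 24 h, against 7687, 8828 and 8606 at 4 h. The count was 11 with station, 11 with scan day and 2 with both as blocks, and the median on the pooled arrays, run on 1 station, was 0.51.

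Of 14 heat shock proteins and chaperonins 7 rose and 0 fell, with a median of 0.51. Hspe1 and Hspd1, which together form the mitochondrial chaperonin, rose 2.09-fold (adjusted p = 9.88e-07) and 2.02-fold (adjusted p = 5.6e-07). Hspe1 had 13965, 15539 and 15507 at 24 h, against 8762, 6253 and 6712 at 4 h and 8654 to 11204 in vehicle livers, so 2 of the 4 h livers lay below the vehicle range. Hsp90ab1 (1.57-fold), a cytosolic chaperone, and Hsph1 (1.59-fold) rose from a 4 h mean inside it, and Hsph1 lost its call without 4 h array 1 or 24 h array 3 (adjusted p up to 0.0677). The list counted 3 without 24 h array 3 and 4 without 4 h array 2.

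Of 34 oxidative phosphorylation genes 8 rose and 1 fell, with a median of 0.17, beside 9.04% and 10.2% of all genes. Their summed signal was 311601 to 373541 at 24 h and 282979 to 323516 at 4 h, against 315932 to 368823 in vehicle livers. Cyc1, cytochrome c1, rose 1.72-fold (adjusted p = 3.98e-05), Atp5f1d, of ATP synthase, 1.61-fold, and Ndufa5, of complex I, 1.44-fold, whereas Cox6a2 fell 1.42-fold. Cyc1 had 12038, 9719 and 9873 at 24 h, against 6536, 6434 and 5406 at 4 h and 6638 to 9017 in vehicle livers. Its 4 h livers thus lay below the vehicle range and its 24 h livers above it. The count of rises was 4 with station as a block, 3 without 4 h array 3 and 4 without 24 h array 1, and the fall of Cox6a2 was lost without 4 of the 6 single arrays (adjusted p up to 0.0614).

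**Figure D3:**
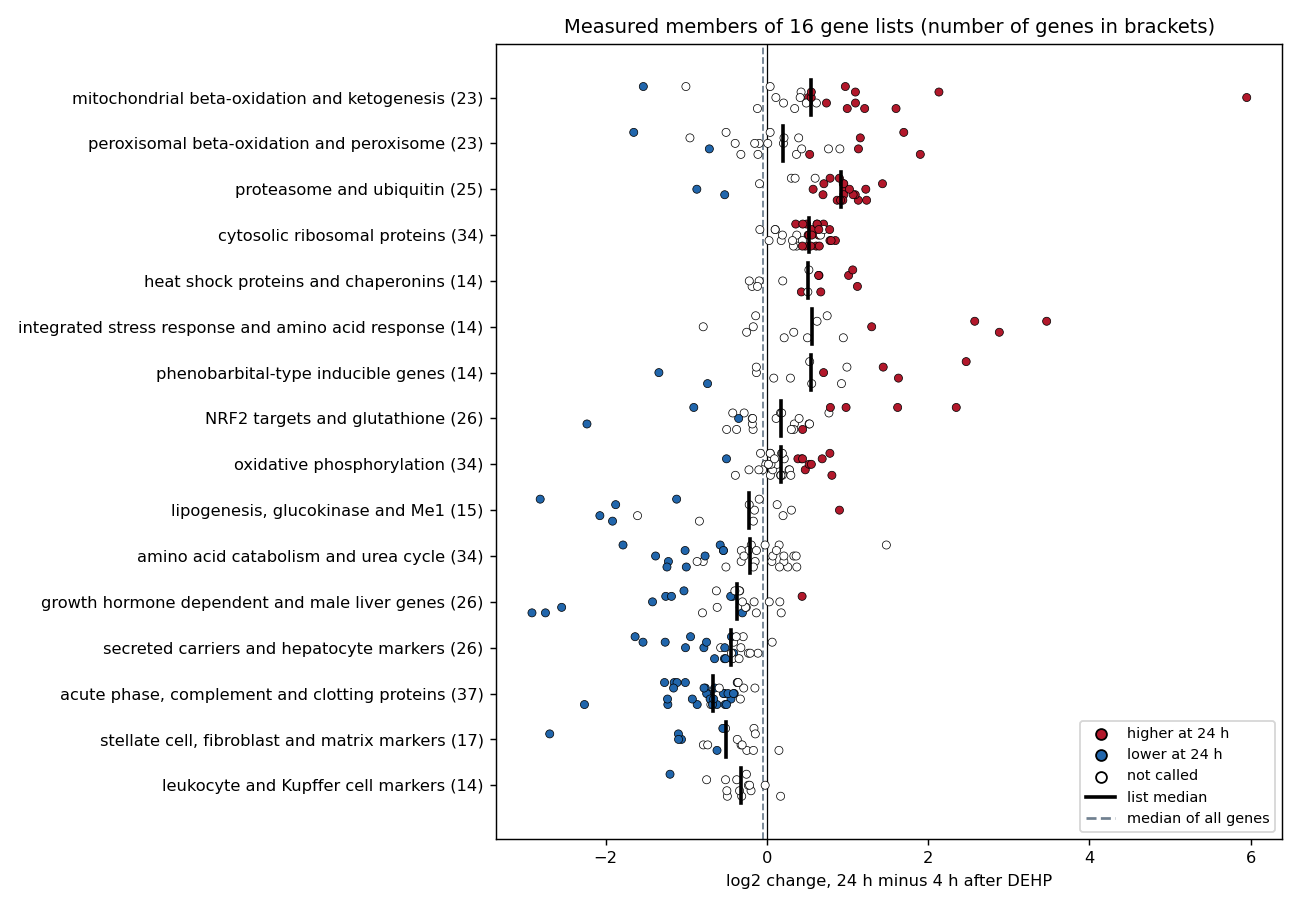
Log2 difference of each measured gene, 24 h minus 4 h after DEHP, in 16 gene lists; filled points were called higher (red) or lower (blue), open points were not called, black bars are list medians and the dashed line is the median of all genes. The proteasome list has its median at 0.91 and the acute phase list at -0.67.

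A small set of stress genes rose steeply and late. Trib3, a pseudokinase, had 1140, 4906 and 2790 at 24 h, against 347, 221 and 108 at 4 h and 50.9 to 416 in vehicle livers (at least 11.1-fold, adjusted p = 2.51e-05). Slc3a2, the heavy chain of amino acid transporters, had 13645, 17823 and 9263 at 24 h, against 1687, 2142 and 1552 at 4 h and 1117 to 1820 in vehicle livers (7.38-fold, adjusted p = 2.88e-06). Neither gene stood away from the vehicle livers at 4 h. Ddit3, the transcription factor CHOP, had 461, 3192 and 7423 at 24 h, against 563, 157 and 582 at 4 h (5.97-fold, adjusted p = 0.00953), so that array 1 of 24 h overlapped the 4 h livers.

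In the list of the integrated stress response, in which ATF4 raises amino acid supply when translation is braked, 4 of 14 genes rose and 0 fell, with a median of 0.56. The fourth was Nupr1 (2.46-fold, adjusted p = 0.00228), a stress-induced chromatin protein. Phgdh, the first enzyme of serine synthesis, rose 3.39-fold by 1 probe set (adjusted p = 0.00888, 0.0549 without 24 h array 2), whereas its brighter probe set missed the threshold (log2 0.62, adjusted p = 0.057). Array 1 of 24 h was the lowest of its group for Trib3, Ddit3, Nupr1 and Phgdh, and without it 7 of the 14 were called. With station as a block Trib3 and Slc3a2 were called, and Ddit3 (adjusted p = 0.0674) and Nupr1 (0.0571) were not; Ddit3 was also lost without 24 h array 3 or 4 h array 2 (adjusted p up to 0.0894).

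Genes that answer ATF4 or CHOP can carry the amino acid response element, whose core is TGATGNAA, and a pair of the genes that rose showed it just upstream of their start. The match is on the strand opposite to the gene in both, so the capitals read TTNCATCA. The stretches, from the RefSeq promoters of GRCr8, are shown because they hold the only matches in the list; they lie at chr3:161275534-161275579 for Trib3 and chr1:190645924-190645981 for Nupr1, both genes on the minus strand.
Trib3: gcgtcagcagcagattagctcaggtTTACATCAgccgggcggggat
Nupr1: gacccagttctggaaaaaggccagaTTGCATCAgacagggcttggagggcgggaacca
The match begins 21 bases before the start of Trib3 and 55 before that of Nupr1. In all, 2 of 12 list members with a promoter in the table held these letters on either strand within 250 bases before to 50 after the start, as did 40 of 2068 genes measured (1.93%) and 1048 of 27457 promoters of the table (3.82%). These letters are not in this window for Slc3a2 and Ddit3. The direct repeat of AGGTCA with 1 base between, which PPARα binds with its partner RXR, was in 0 of 19 promoters of the mitochondrial and 0 of 19 of the peroxisomal list, against 16 of 27457 (0.0583%).

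Of 14 chaperones of the endoplasmic reticulum 2 rose and 1 fell, with a median of 0.15, shares near those of all genes (9.04% higher and 10.2% lower). Hyou1 had 2462, 10894 and 10484 at 24 h, against 2727, 2707 and 2694 at 4 h (2.42-fold, adjusted p = 0.0201), so again array 1 of 24 h lay with the 4 h livers. Hsp90b1 rose 1.84-fold (adjusted p = 0.0136), and Sec61b, of the translocation channel, fell 1.35-fold. All 3 calls were lost without some single arrays (adjusted p up to 0.147, 0.0977 and 0.124 for the 3 genes). The list counted 6 higher without 24 h array 1 and 0 without array 2 or array 3.

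Genes of drug metabolism rose in part. Cyp2b2, the phenobarbital-inducible cytochrome, had 77192, 58677 and 74589 at 24 h, against 9976, 13499 and 14686 at 4 h and 4654 to 15682 in vehicle livers (5.55-fold, adjusted p = 6.81e-06). Cyp2b15 (2.72-fold, adjusted p = 9.58e-07), Por, the reductase that serves cytochromes (1.63-fold), and Aldh1a1, a retinaldehyde dehydrogenase (3.10-fold, adjusted p = 0.0202), rose with it. In the phenobarbital list 4 of 14 were higher and 2 lower, with a median of 0.54. Of all genes measured 9.04% rose and 10.2% fell. The falls of the list, a share near that of all genes, were Cyp1a2 (2.53-fold) and Cyp2b3 (1.67-fold), which is not inducible by phenobarbital. Aldh1a1 was lost without 4 h array 1 or 3 or 24 h array 3 (adjusted p up to 0.0896).

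Nqo1, a quinone reductase and target of NRF2, had 10289, 7811 and 8452 at 24 h, against 2681, 1305 and 1470 at 4 h and 835 to 4251 in vehicle livers (5.09-fold, adjusted p = 0.00041), a log2 difference of 2.35, or of 1.59 with station as a block (adjusted p = 0.0263). The list of NRF2 targets and glutathione had 6 of 26 higher and 3 lower, with a median of 0.18, where 9.04% of all genes measured rose and 10.2% fell. Gsta3, a glutathione transferase (3.08-fold, adjusted p = 0.0222), Txnrd1, thioredoxin reductase (1.73-fold), and Gsr, glutathione reductase (1.44-fold), rose. Ptgr1, a prostaglandin reductase, fell at least 4.70-fold as a ratio of geometric means (arithmetic means 321 at 24 h and 1315 at 4 h), and Gstt1 (1.87-fold) and Mgst1 (1.27-fold) fell too. Gsta3 (adjusted p up to 0.16, without 24 h array 2), Gstt1 (0.0545, without 4 h array 3) and Mgst1 (up to 0.145) lost their calls without single arrays, and Mgst1 turned to 0.06 on the log2 scale under quantile normalization. Gsta3 was also not called with station or with scan day as a block (adjusted p = 0.129 and 0.131).

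Proteins that the liver secretes into plasma moved down as a body. In the list of acute phase, complement and clotting proteins 30 of 37 measured genes were lower at 24 h and 0 higher, with a median log2 difference of -0.67, and 22 were called lower with scan day and station both as blocks. C1s, a protease that starts the complement cascade, had 1783, 1338 and 1382 at 24 h, against 8563, 6479 and 6549 at 4 h and 6290 to 8921 in vehicle livers (4.80-fold, adjusted p = 9.67e-11). C1r, its partner protease, fell 2.22-fold (adjusted p = 1.67e-06), Cp, the copper carrier ceruloplasmin, 2.35-fold (adjusted p = 8.41e-07), and Serpina3n, a protease inhibitor, 2.41-fold (adjusted p = 1.02e-05). Plg, plasminogen, averaged 10580 at 24 h and 22956 at 4 h, and the fibrinogen chains Fga, Fgb and Fgg also fell.

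Of 26 secreted carriers and hepatocyte markers 13 fell and 0 rose, with a median of -0.44. Among them were Apoa4 (2.90-fold) and Apoa2 (1.72-fold), apolipoproteins, Lipc, hepatic lipase (2.01-fold), and Igf1, the liver's growth factor. Igf1 had 13733, 18124 and 20931 at 24 h, against 34279, 43886 and 47627 at 4 h by its brightest probe set (2.40-fold, adjusted p = 1.27e-05). The hepatocyte marker sum given above was lower at 24 h than at 4 h in the same direction, and its part in these results was not tested.

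Genes that growth hormone drives in male liver also fell, with 10 of 26 lower, 1 higher and a median of -0.37. Car3, carbonic anhydrase 3, had 2277, 1558 and 1619 at 24 h, against 8895, 8635 and 31964 at 4 h and 6417 to 14497 in vehicle livers (7.53-fold, adjusted p = 8.66e-05). Socs2, a feedback inhibitor of growth hormone signalling, had 134, 80.7 and 57.4 at 24 h, against 1372, 1452 and 511 at 4 h (at least 6.71-fold, adjusted p = 0.00334, 0.0606 with station as a block). Fmo1, a flavin monooxygenase, had 733, 48.8 and 846 at 24 h, against 2702, 3091 and 2213 at 4 h and 3250 to 5431 in vehicle livers (at least 5.84-fold as a ratio of geometric means, adjusted p = 2.91e-05). For these 3 genes no 24 h liver reached a 4 h liver, which the rule for naming the largest falls required.

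Hsd11b1, which regenerates glucocorticoid (2.67-fold), Hsd3b5, a steroid dehydrogenase (2.38-fold), Sult1c3, a sulfotransferase (2.27-fold), and Cyp2c11, the male-specific cytochrome (2.04-fold, adjusted p = 0.000108), fell as well. Cyp2e1 rose 1.35-fold and lost its call without 4 h array 3 or 24 h array 1 (adjusted p up to 0.189) and with station as a block (0.178).

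Sugar handling fell at its gates. Slc2a2, the glucose transporter of hepatocytes, had 571, 963 and 1772 at 24 h, against 4654, 3542 and 4548 at 4 h and 3425 to 6296 in vehicle livers (4.25-fold, adjusted p = 1.74e-05). Slc37a4, which carries glucose-6-phosphate into the endoplasmic reticulum (2.09-fold), Pygl, glycogen phosphorylase (2.20-fold), and Khk, ketohexokinase (1.46-fold), fell. In the list of glycolysis, gluconeogenesis and glycogen 5 of 19 fell and 1 rose, with a median of -0.21. These counts stand beside 10.2% lower and 9.04% higher among all genes measured. The rise, Pgam1 (1.34-fold), was lost without 24 h array 2 (adjusted p = 0.0566).

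Of 34 genes of amino acid catabolism and the urea cycle 9 fell and 0 rose, with a median of -0.21. Otc, ornithine transcarbamylase, had 8177, 6461 and 8531 at 24 h, against 14882, 14048 and 17213 at 4 h (2.00-fold, adjusted p = 1.67e-06). Cdo1, cysteine dioxygenase (2.02-fold), Oat, ornithine aminotransferase (3.44-fold), and Bhmt, which remethylates homocysteine (2.33-fold), fell with it.

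Bile acid synthesis and transport had 2 of 18 genes lower and 0 higher, with a median of -0.25. This share of falls is near that of all genes measured (10.2%). Slc10a1, which takes bile acids up from blood, fell 2.33-fold (adjusted p = 2.95e-05), and Abcb11, the export pump, 1.34-fold, a call lost without any 1 of 4 arrays (adjusted p up to 0.185). Cyp7a1, whose step sets the rate at which bile acids are made, was near or under the floor at both times, with 148, 142 and 133 at 24 h and 152, 176 and 437 at 4 h, against 1022 to 9501 in vehicle livers. All 4 h livers lay below every vehicle liver. Since every 24 h signal was under the floor, a further fall could not be measured (adjusted p = 0.564), although the deposited signals of the 2 times do not overlap. Of 15 genes of cholesterol synthesis 3 fell and 0 rose, with a median of -0.41, namely Msmo1 (2.20-fold), Nsdhl (1.75-fold) and Fdft1 (1.61-fold, up to 0.236 as adjusted p without single arrays).

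Matrix genes were lower at 24 h. Of 17 stellate cell, fibroblast and matrix markers 6 fell and 0 rose, with a median of -0.51. Lox, which cross-links collagen, had 223, 330 and 101 at 24 h, against 1889, 2038 and 775 at 4 h (at least 6.47-fold, adjusted p = 0.00159). With station as a block its log2 difference was -1.69 in place of -2.69 (adjusted p = 0.0752), and the other two Lox probe sets fell 3.48-fold and at least 3.31-fold. The first of these was lost without 4 h array 2 (adjusted p = 0.079), and both with station as a block (0.322 and 0.232). Col3a1 (2.14-fold) and Col1a2 (2.08-fold), collagen chains, and Fn1, fibronectin (2.14-fold), fell too. The summed signal of 8 stellate cell markers was 19803 to 27560 at 24 h, 29808 to 37786 at 4 h and 29820 to 42451 in vehicle livers, and Des was under the floor on all 6 arrays.

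Leukocyte and Kupffer cell markers had 1 of 14 lower, Ptprc (2.30-fold, adjusted p = 0.0175, up to 0.121 without single arrays), and a median of -0.33. Among all genes measured 10.2% were lower. Core leukocyte and Kupffer cell markers summed to 7784 to 9082 at 24 h, 10791 to 13521 at 4 h and 10934 to 18907 in vehicle livers. Of bile duct markers 1 of 6 was lower (Muc1, 1.47-fold, lost without 4 h array 1 or 2, adjusted p up to 0.0646), with a median of -0.40. Endothelial markers had 0 of 7 called and a median of -0.01, and erythroid markers 0 of 6 and a median of -0.22. The part of a change in cell types in the results above was not tested.

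Few early response regulators were called. Of 27 immediate early genes and MAP kinase phosphatases 2 fell and 0 rose, with a median of -0.07, where 10.2% of all genes measured fell and 9.04% rose. Tsc22d1, a transcription regulator, had 889, 1564 and 981 at 24 h, against 4149, 2887 and 6047 at 4 h and 5685 to 13791 in vehicle livers (3.76-fold lower, adjusted p = 0.00015). Its 24 h livers all lay below its 4 h livers, and 2 of those below every vehicle liver. Cited2, a coregulator, fell 1.90-fold (adjusted p = 0.0451), a call lost without any 1 of 5 arrays (up to 0.234) and with station as a block (0.156). Klf10 had 861, 685 and 1463 at 24 h and 1805, 1972 and 1431 at 4 h, and missed the threshold (adjusted p = 0.359).

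No gene was called among 9 of the circadian clock (median 0.15) or 13 nuclear receptors and coregulators (median -0.29). Nr1d1 (log2 -0.17, SE 0.26), Bmal1 (0.20, SE 0.48) and Dbp (log2 SE 0.62, with 1 array under the floor in each group) had wide errors, and their signs changed in some alternatives. Against vehicle livers, not matched in time, Nr1d1 had log2 differences of 1.09 at 24 h and 1.25 at 4 h (adjusted p = 0.000282 and 0.00094). Bmal1 had -1.68 at 24 h and -1.89 at 4 h (adjusted p = 0.00147 and 0.00574), with 1 array under the floor in each group. The labels give no time of day, and its part in the vehicle range was not tested. Of 16 cell cycle and replication genes 1 rose, Cdk4 (1.59-fold, adjusted p = 0.00256), and 0 fell, with a median of -0.03. Among all genes measured 9.04% rose and 10.2% fell.

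The change from 4 to 24 h after DEHP was then tested against the same change after clofibrate, another activator of PPARα, and after VPA, a branched-chain fatty acid used against seizures, in a fit of all 76 individual arrays. The difference passed the threshold for 41 of 4503 probe sets against clofibrate, 30 of them more positive (0.666%) and 11 more negative (0.244%) after DEHP. Against VPA it passed for 25, with 7 more positive (0.155%) and 18 more negative (0.4%). Stress genes led the differences in the positive direction. Slc3a2 changed by 2.88 on the log2 scale after DEHP and by -0.66 after clofibrate (difference 3.54, SE 0.62, adjusted p = 0.000436). Trib3 changed by at least 3.47 after DEHP, by -0.06 after clofibrate and by -0.27 after VPA (adjusted p = 0.0363 for the difference from clofibrate and 0.0368 for that from VPA).

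Hyou1 changed by 1.27 after DEHP, by -1.61 after clofibrate (adjusted p = 0.000591 for the difference) and by -0.77 after VPA (adjusted p = 0.0477). Dnajb9, a cochaperone of the endoplasmic reticulum, changed by 0.76 after DEHP and -1.59 after clofibrate (adjusted p = 0.014 for the difference). Taken alone its change after DEHP was not called (adjusted p = 0.223), while its fall after clofibrate was (0.00317). Igf1, by a dimmer probe set than above, changed by -2.53 after DEHP and 1.05 after VPA (difference -3.58, adjusted p = 0.0024), and Tsc22d1 by -1.91 after DEHP and 0.09 after VPA (difference -1.996, adjusted p = 0.0452). Psmb3 changed by 1.43 after DEHP and 0.50 after VPA (difference 0.93, adjusted p = 0.0493). Slc3a2, Hyou1 against clofibrate and Igf1 kept their calls without any single array of their 12. Trib3 was lost without 8 of them against clofibrate (adjusted p up to 0.183) and 7 against VPA (up to 0.24), Hyou1 against VPA without 11 (up to 0.275), Dnajb9 without 4 (up to 0.115), Tsc22d1 without 9 (up to 0.166) and Psmb3 without 10 (up to 0.182). The clofibrate arrays stood apart in RNA measures, with 3' to 5' log2 ratios of 1.17, 0.87 and 2.74 at 24 h and 1.60, 0.24 and 1.17 at 4 h, against 0.27 to 0.57 at 24 h and 0.18 to 0.30 at 4 h after DEHP. Their median signals were 228 to 248 at 24 h and 251 to 297 at 4 h. The part of these measures in the differences was not tested. All 3 arrays of 24 h after clofibrate ran on station 2, and all 3 of 4 h after VPA on station 1, opposite to DEHP. With station as a block Slc3a2 and Hyou1 against clofibrate (adjusted p = 0.00186 for both) and Igf1 (0.011) were called. Trib3 (0.0681 against clofibrate and 0.0986 against VPA), Dnajb9 (0.0578), Tsc22d1 (0.0986) and Psmb3 (0.104) were not. Hyou1 against VPA (0.0986) was not called either. The counts varied with the fit, from 0 to 193 against clofibrate and from 3 to 120 against VPA. Without clofibrate 24 h array 3, that of the highest ratio, the count against clofibrate was 7.

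**Figure D4:**
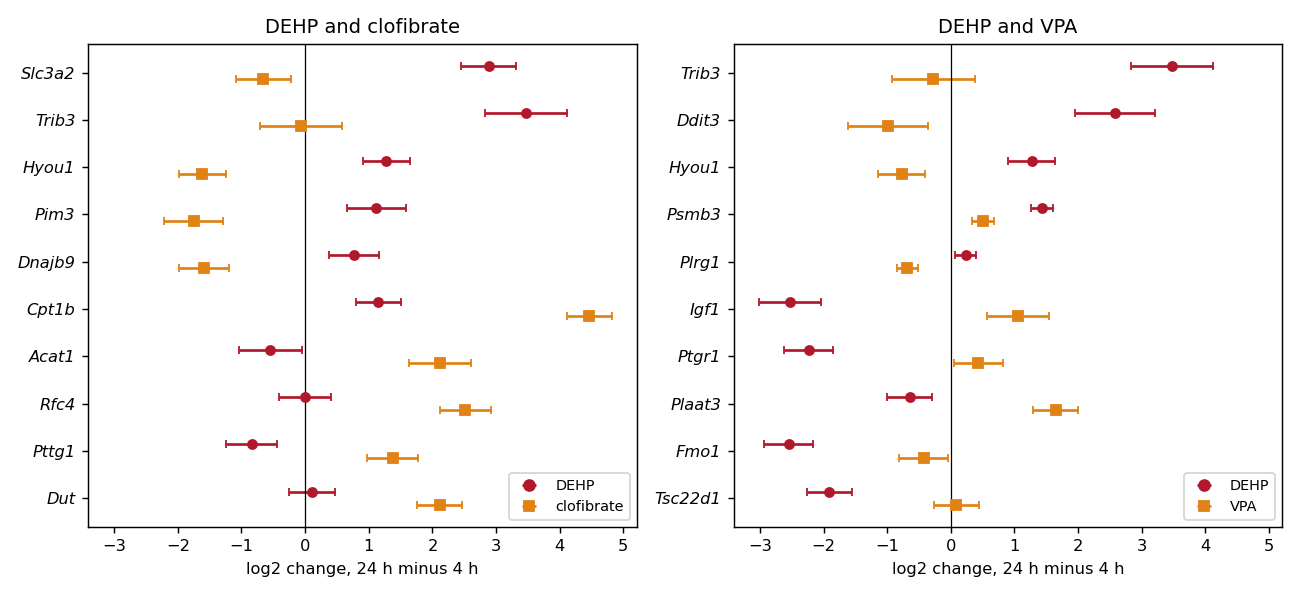
Log2 change from 4 to 24 h (24 h minus 4 h) with its standard error for the genes of largest called difference, after DEHP (red circles) and after the other compound (orange squares), clofibrate on the left and VPA on the right, with signals under 150 set to 150. Slc3a2 stands at 2.88 after DEHP and -0.66 after clofibrate.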

How the data were processed

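Liver total RNA (10 µg per array) was hybridised to Affymetrix rat genome arrays, 1 animal per array, and read with MAS 5.0. The deposited values are signal intensities, which the authors scaled globally to a target of 1500 per the labels' protocols. The deposited scanner files (other) gave only fluidics station and scan day. All sample groups were taken from the labels. Of 8799 probe sets, 59 controls were left out; 7018 had 1 gene symbol, 308 several and 1473 none, and only the first kind were named. A probe set had to average 500 or more in at least 1 group. Signals under 150 were set to 150 before log2.

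The log2 values were fitted with limma 3.58.1 in R 4.3.3 (group means over 26 individual DEHP arrays, intensity trend), with Benjamini-Hochberg adjustment over 4092 probe sets. Compound differences came from a fit of 76 individual arrays in 18 groups over 4503 probe sets. Other values used Python 3.11.15. Folds are ratios of geometric means; where the lower group held signals at the floor, they are lower bounds of that ratio. A gene in a list was represented by 1 probe set, that of highest mean signal. In simulated data the DEHP fit recovered 31.8%, 65.7% and 95.5% of genes changed 1.5-, 2- and 4-fold, and 7.91% of calls were false, over 4248 probe sets. For the difference from clofibrate the recovery was 1.49%, 34.3% and 83.3%, with 4.82% of calls false, over 4669 probe sets. For that from VPA it was 7.46%, 19.4% and 68.2%, with 10% of calls false, over 4662 probe sets. Each simulation changed 66 or 67 probe sets by each fold, with independent noise and no effect of station or scan day. These rates hold for that setting only and do not carry over to the calls in the real data.

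Named genes were the 12 largest rises and falls (1 symbol, called, no overlap, mean of 1000 or more in the higher group), up to 4 called members per list and direction, some fixed names, and 5 per direction for each compound difference. Other list members were named after their values were seen. The members and all 29 lists were chosen with earlier results of these data known. Alternatives covered normalization, floor, filter, weights, blocks, the arrays entering the fit and single arrays left out. Fluidics station was added as a block after the data were seen. The vehicle range without 1 liver was also computed after the data were seen.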

Additional observations from a re-analysis of the deposited data

Results flagged for a closer look

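The change from 4 to 24 h differed between DEHP and clofibrate for 41 probe sets and between DEHP and VPA for 25, by the limma test of the difference itself. Against clofibrate the largest positive log2 differences, with adjusted p, were those of Slc3a2 (3.54, 0.000436), Trib3 (3.53, 0.0363), Hyou1 (2.89, 0.000591), Pim3 (2.87, 0.0128) and Dnajb9 (2.36, 0.014). The largest negative ones were those of Cpt1b (-3.32, 3.93e-05), Acat1 (-2.67, 0.0363), Rfc4 (-2.52, 0.0128), Pttg1 (-2.22, 0.0324) and Dut (-2.01, 0.0315). Every DEHP array was under the floor for Rfc4, and arrays of Cpt1b were under it on both sides, so neither value is a size. By the same fit Acat1, Pttg1 and Dut were not called after DEHP (log2 -0.55, -0.84 and 0.11, adjusted p = 0.557, 0.18 and 0.896). They rose after clofibrate (log2 2.12, 1.38 and 2.11), as did Rfc4, and Cpt1b was called higher at 24 h after both compounds. Pim3 was not called after DEHP (log2 1.12, adjusted p = 0.113) and fell after clofibrate (-1.75).

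Against VPA the positive ones were those of Trib3 (3.74, 0.0368), Ddit3 (3.56, 0.0456), Hyou1 (2.05, 0.0477), Psmb3 (0.93, 0.0493) and Plrg1 (0.92, 0.0493). The negative ones were those of Igf1 (-3.58, 0.0024), Ptgr1 (-2.66, 0.00483), Plaat3 (-2.29, 0.0133), Fmo1 (-2.12, 0.0477) and Tsc22d1 (-1.996, 0.0452). Plrg1 and Plaat3 were not called after DEHP (log2 0.23 and -0.65, adjusted p = 0.434 and 0.27). After VPA Plrg1 fell (log2 -0.68) and Plaat3 rose (1.645). Calls were lost without single arrays of the 12 in each test. Against clofibrate this held for Acat1 and Dut (8 arrays each, adjusted p up to 0.171 and 0.121), Pttg1 (6, up to 0.21), Pim3 (2, up to 0.0997) and Rfc4 (1, 0.112), and against VPA for Plrg1 (11, up to 0.282), Fmo1 (10, up to 0.379), Ddit3 (7, up to 0.309) and Plaat3 (4, up to 0.103). Cpt1b and Ptgr1 kept theirs. With station as a block Dut against clofibrate was not called (adjusted p = 0.0927). Nor were Plrg1 (0.132), Fmo1 (0.0986), Ddit3 (0.0986) and Plaat3 (0.0971) against VPA. Cpt1b, Acat1, Rfc4, Pttg1, Pim3 and Ptgr1 were still called with that block.

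Vehicle livers stood apart from the others of their group for 3 genes. Chance flags about 1 in 20 groups, and whether these 3 exceed that rate was not tested. Ech1 had 11706 on 1 array at 48 h, against 3229 on the next. Ddit3 had 171 on 1 array at 48 h, against 307 on the next lowest. Cpt1a had 1927 on 1 array at 168 h, against 3479 on the next lowest. The 48 h liver high in Ech1 was the one that also set the vehicle maximum of Cyp4a1, Acaa1b, Cyp2b2 and Plin2.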

How the results depend on the processing

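In place of 885, the total of probe sets called was 490 with only the compared groups in the fit, 542 with all 76 arrays, 556 with station, 405 with scan day and station, and 679 to 841 without single arrays. Of the 885 themselves, 462 stayed called with only the compared groups and 531 with station. Without each single array in turn, 481 stayed called every time. Replicate numbers did not pair the livers (correlations of same-numbered deviations of -0.14, -0.09 and -0.06), and a replicate block gave 851, or 258 within the 6 arrays. The 41 differences from clofibrate became 27 with no filter, 193 with array weights, 82 with the 3'/5' covariate, 0 with only the compared groups, 25 with station, 23 with scan day and station, and 7 to 81 without single arrays. The 25 differences from VPA became 9 with centring, 12 and 42 with floors of 50 and 300, 45 with no filter, 15 with a filter of 1000, 120 with array weights, 16 with the replicate block, 3 with scan day, 51 with the 3'/5' covariate, 7 with only the compared groups, 9 with station, 3 with scan day and station, and 7 to 29 without single arrays. The cause was not tested.

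Signs turned for Mgst1, at 0.064 on the log2 scale under quantile normalization, and for 4 genes that were not called. Cpt1a was 0.42 with station, 0.33 with scan day and station, and -0.65 to 0.39 without single arrays. Nr1d1 was 0.14 with station, 0.030 with scan day and station, and -0.57 to 0.081 without single arrays. Without single arrays Dbp ranged over -0.22 to 1.22 and Bmal1 over -0.38 to 0.64. Of 117 named genes, 25 lost their call with station, 19 with scan day and 43 with both. Signals near 150 limit low genes, and 3 livers a group limit small changes.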
